A study of Mus musculus with 12 samples.

Results

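The 8 genes described here are Cd34, a surface sialomucin by which blood stem and progenitor cells are sorted, and 7 transcription factor genes that act in blood stem cells: Erg, Fli1, Etv6, Lmo2, Lyl1, Hlf and Mecom. They were taken by symbol from the annotation of the array and are measured by 9 probe sets, of 35556 on the array. Mecom has 2 probe sets and each other gene has 1. With 1 probe set per gene, the 8 genes stand among 19938 tested genes.

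The samples are cultures of mouse bone marrow progenitors, hybridised to 12 gene arrays that form 4 groups of 3. The donor mice carried CreER, a Cre recombinase that works once tamoxifen is given, together with a floxed Zfx allele (Zfx fl/y, arrays labelled Zfx ko) or a wild-type one (Zfx wt/y, arrays labelled Zfx wt). The /y marks males with 1 copy of this X-linked gene, and the age of the mice and the promoter of CreER are not stated in the labels. All mice received 5 mg tamoxifen daily by gavage for 3 days, so the wt groups share both CreER and the drug. c-Kit+ cells were infected with a retrovirus for Myc and GFP or with one for GFP alone, grown for 48 hours, sorted for GFP and grown for 4 more days in medium with 20% fetal bovine serum and, at 10 ng/mL each, the cytokines SCF, IL-6 and IL-3. The groups are labelled Zfx ko with Myc virus, Zfx wt with Myc virus, labelled Zfx ko with GFP virus, and Zfx wt with GFP virus. The labels do not say whether the 3 arrays of a group come from separate mice or cultures, so a p-value here reflects only how far these arrays vary, which may be technical.

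A blood stem cell keeps dividing without maturing as long as a set of transcription factors holds its gene programme in place. Erg, Fli1, Lmo2 and Lyl1 bind many of the same enhancers together with Gata2, Runx1 and Tal1: Erg and Fli1 are ETS factors that contact DNA directly, Lyl1 is a basic helix-loop-helix factor, and Lmo2 is a LIM-only bridge that joins such factors without touching DNA. Hlf, a PAR bZIP factor, and Mecom, whose locus encodes the zinc finger proteins EVI1 and MDS1-EVI1, are most active in stem cells and decline as cells mature, and Etv6 is an ETS repressor that adult stem cells need. Myc, which drives growth and division, is held low in resting stem cells, and Zfx is a zinc finger factor that blood stem cells need for self-renewal. The series asks how loss of Zfx changes gene expression in progenitors given Myc.

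The promoters shown are those of the 3 genes that passed the threshold as lower with Myc in cells labelled Zfx ko. The ETS core is marked because Erg and Etv6 themselves encode ETS factors. Whether an ETS factor acts at these genes was not tested. Each sequence holds the 250 bases before a RefSeq transcription start in GRCm38.p6, 5′ to 3′ on the strand of the gene, with capitals on GGAA and TTCC, the ETS core read on both strands. Cd34 lies at chr1:194938571-194938820 (+). The Erg window at chr16:95586594-95586843 (-) is the most upstream of 3. Etv6 lies at chr6:134035450-134035699 (+).
Cd34: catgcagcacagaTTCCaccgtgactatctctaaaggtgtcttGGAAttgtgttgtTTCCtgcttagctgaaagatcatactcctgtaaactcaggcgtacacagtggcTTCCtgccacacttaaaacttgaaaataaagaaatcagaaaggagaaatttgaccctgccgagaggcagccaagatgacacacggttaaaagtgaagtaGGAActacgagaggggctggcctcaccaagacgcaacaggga
Erg: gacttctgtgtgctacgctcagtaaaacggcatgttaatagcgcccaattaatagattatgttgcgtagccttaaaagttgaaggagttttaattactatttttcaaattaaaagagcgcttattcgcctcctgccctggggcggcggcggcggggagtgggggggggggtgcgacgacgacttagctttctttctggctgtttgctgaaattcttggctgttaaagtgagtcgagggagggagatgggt
Etv6: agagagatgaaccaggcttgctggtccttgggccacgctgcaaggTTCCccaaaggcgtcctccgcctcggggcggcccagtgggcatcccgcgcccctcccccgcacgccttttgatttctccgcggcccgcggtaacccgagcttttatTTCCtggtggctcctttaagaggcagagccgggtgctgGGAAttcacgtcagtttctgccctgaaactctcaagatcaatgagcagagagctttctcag
The Cd34 window held 5 matches, the Etv6 window held 3, and the Erg window shown held 0, while the other two Erg windows held 4 and 2. Of 32851 mouse promoter windows of this length, 93.4% held at least 1 match, with a median of 3. The E-box CACGTG, the letters that Myc and Max prefer, was in 6.02% of all windows and in 0 of the 9 windows of the 6 genes found in the promoter table. A match describes letters and not a bound site, and no match says only that these letters are not in the window.

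The deposited values are intensities on a linear scale, with an array median between 127 and 137. The Myc probe set, the check on the virus, averaged 5046 ± 260 in labelled Zfx ko and 5231 ± 343 in Zfx wt cells with Myc virus, against 2701 ± 145 in labelled Zfx ko and 3014 ± 197 in Zfx wt cells with GFP virus (SD, n = 3 each). The Zfx probe set was not lower in arrays labelled ko: it averaged 1048 ± 63.2 in labelled ko against 992 ± 26.4 in wt with Myc virus (limma adjusted p = 0.789), and 1021 ± 64.9 in labelled ko against 946 ± 72.9 in wt with GFP virus (adjusted p = 0.619). Where on the Zfx transcript the probes lie is not given, so each direction drawn between genotypes rests on the labels. Of 11 genes of granulocyte and monocyte progenitors, without Cd34, 11 were above the 95th percentile of 1027 smell receptor genes, 84.7, which stand here for background. Mpo was at 9644 to 14614, Elane at 11088 to 17316 and Kit, whose protein was used to select the cells, at 691 to 1582.

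Measured the same way, 7 of the 8 genes were above at least 99.8% of the smell receptor genes, and Mecom was not. The mean of Mecom over 12 arrays was 48.7 on the probe set used and 47.8 on the other, with 75.9% and 74.7% of the smell receptor genes at or below these means. Both Mecom values lie below the median of all probe sets, 131. Mecom was therefore near background on these arrays, and its differences below are differences of a near-background signal.

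**Figure D1:**
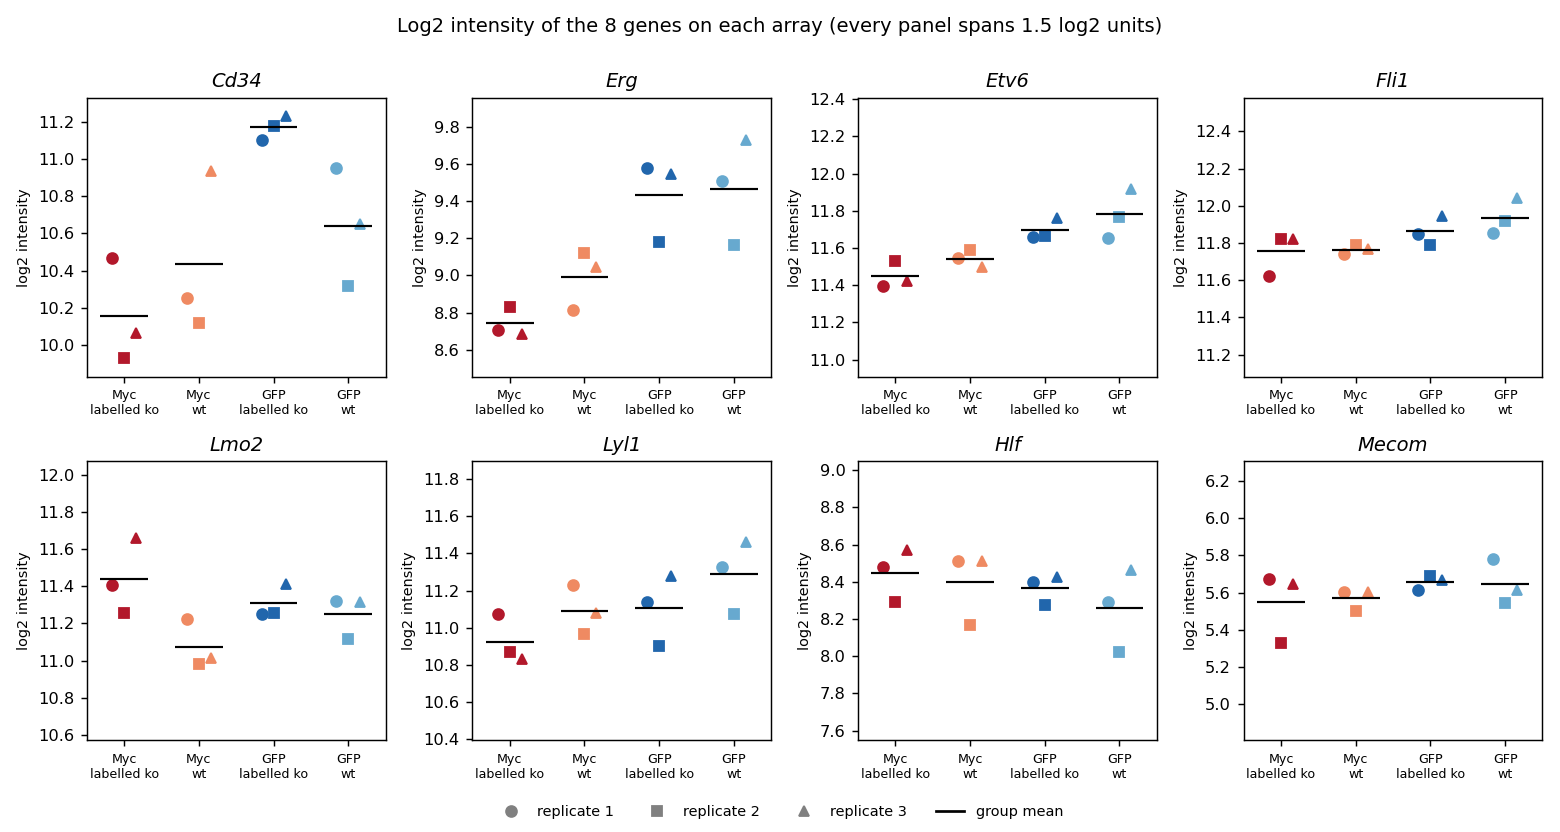
Log2 intensity of the 8 genes on each of the 12 arrays, by group, with the mean of each group as a line and the replicate number as the shape of the point; every panel spans 1.5 log2 units. The Myc arrays labelled Zfx ko lie below all GFP arrays labelled Zfx ko for Cd34, Erg and Etv6, while these 2 groups overlap for the other 5 genes.

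Cd34 showed the widest movement of the 8 genes. In cells labelled Zfx ko, Cd34 had 1415, 975 and 1072 with Myc virus, against 2201, 2319 and 2402 with GFP virus. All 3 Myc arrays were below all 3 GFP arrays. Cd34 was 2.02-fold lower with Myc (95% interval 1.44 to 2.85, limma adjusted p = 0.0136), and it was lower in each same-numbered pair, by log2 differences of -0.64, -1.25 and -1.16. Leaving out replicate 3 of the Myc arrays labelled ko gave an adjusted p of 0.0565.

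In Zfx wt cells the Cd34 groups overlapped. Cd34 had 1220, 1110 and 1955 with Myc virus, against 1983, 1274 and 1608 with GFP virus. Replicate 1 was lower with Myc, replicate 2 a little lower and replicate 3 higher, at log2 differences of -0.70, -0.20 and 0.28. The fold was 0.867 (95% interval 0.616 to 1.22, limma adjusted p = 0.781).

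The difference between the genotypes in the response of Cd34 to Myc was -0.81 ± 0.31 on the log2 scale (SE; 95% interval -1.51 to -0.11) and did not pass the threshold (limma adjusted p = 1, and 0.976 with the replicate number added to the model, called the replicate block below). The 3 replicate sets gave 0.06, -1.05 and -1.45, so replicate 1 did not show it. With GFP virus, Cd34 was at 2201 to 2402 in labelled Zfx ko cells and at 1274 to 1983 in wt cells, with no overlap. That difference was 1.45-fold (95% interval 1.03 to 2.03) and missed the threshold (adjusted p = 0.29; 0.105 with the block). With Myc virus the genotypes overlapped, at a log2 difference of -0.28 ± 0.22 (SE, adjusted p = 0.712). In order of group mean, Cd34 was highest in labelled ko cells with GFP at 2307 ± 101, followed by wt with GFP at 1622 ± 355, wt with Myc at 1428 ± 459 and labelled ko with Myc at 1154 ± 231 (SD, n = 3 each), and none of the 3 pairs of neighbours in this order passed the threshold. In a bulk sample, fewer cells that carry a transcript and less of it per cell cannot be told apart.

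Erg, an ETS factor that stem cells need to persist, was lower with Myc in both genotypes by the values, and past the threshold in the cells labelled Zfx ko. There Erg had 418, 456 and 412 with Myc virus, against 763, 580 and 748 with GFP virus. The groups did not overlap, and Erg was 1.62-fold lower (95% interval 1.29 to 2.03, limma adjusted p = 0.0126). The adjusted p was 0.0526 without replicate 3 of the Myc arrays labelled ko and 0.0523 without replicate 1 of the GFP arrays labelled ko.

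In Zfx wt cells, Erg had 450, 557 and 528 with Myc virus, against 728, 573 and 847 with GFP virus. The groups again did not overlap, although replicate 2 barely differed, at log2 differences of -0.69, -0.04 and -0.68 over the pairs. Erg was 1.39-fold lower (95% interval 1.10 to 1.74), with a limma adjusted p of 0.0805, and of 0.0405 with the replicate block. Of the 12 fits that left out 1 array, 1 called Erg here, at 0.0252 without replicate 2 of the wt GFP arrays. The adjusted p reached 0.279 in the other fits, and it was 0.141 with the compared groups alone. The genotypes differed in this response by -0.22 ± 0.21 on the log2 scale (SE, adjusted p = 1). Between genotypes, Erg differed by -0.25 ± 0.15 with Myc virus (adjusted p = 0.521) and by -0.03 ± 0.15 with GFP virus (adjusted p = 0.981).

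Etv6, an ETS repressor, moved less but within a tight spread. In cells labelled Zfx ko, Etv6 had 2697, 2955 and 2740 with Myc virus, against 3239, 3251 and 3472 with GFP virus. No Myc array reached a GFP array, and Etv6 was 1.19-fold lower (95% interval 1.06 to 1.32, limma adjusted p = 0.0449). This call lies at the threshold: it was lost in 9 of 12 fits that left out 1 array, with adjusted p between 0.0278 and 0.146, and when arrays were centred on their medians (0.134).

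In Zfx wt cells, Etv6 had 2987, 3080 and 2888 with Myc virus, against 3223, 3490 and 3872 with GFP virus, again without overlap. Etv6 was 1.18-fold lower (95% interval 1.06 to 1.32), with a limma adjusted p of 0.0678 and of 0.029 with the replicate block. Of the 12 fits that left out 1 array, 1 called Etv6 here, at 0.0375 without replicate 1 of the wt GFP arrays. The adjusted p reached 0.239 in the other fits, and it was 0.143 with the compared groups alone. Between genotypes, Etv6 differed by -0.09 ± 0.07 with Myc virus (adjusted p = 0.681) and by -0.08 ± 0.07 with GFP virus (adjusted p = 0.755), on the log2 scale with SE.

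Fli1, a close ETS relative of Erg, had 3155, 3621 and 3625 with Myc virus in cells labelled Zfx ko, against 3691, 3538 and 3951 with GFP virus. These groups overlapped, at a log2 difference of -0.11 ± 0.07 (SE, limma adjusted p = 0.488). In Zfx wt cells Fli1 had 3421, 3534 and 3481 with Myc virus, against 3696, 3867 and 4210 with GFP virus. All 3 Myc arrays were below the GFP arrays there, but the difference of -0.17 ± 0.07 missed the threshold (adjusted p = 0.202; 0.0662 with the block). Fli1 did not pass between genotypes with either virus, at log2 differences of -0.01 with Myc and -0.07 with GFP (adjusted p = 0.997 with Myc and 0.813 with GFP).

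**Figure D2:**
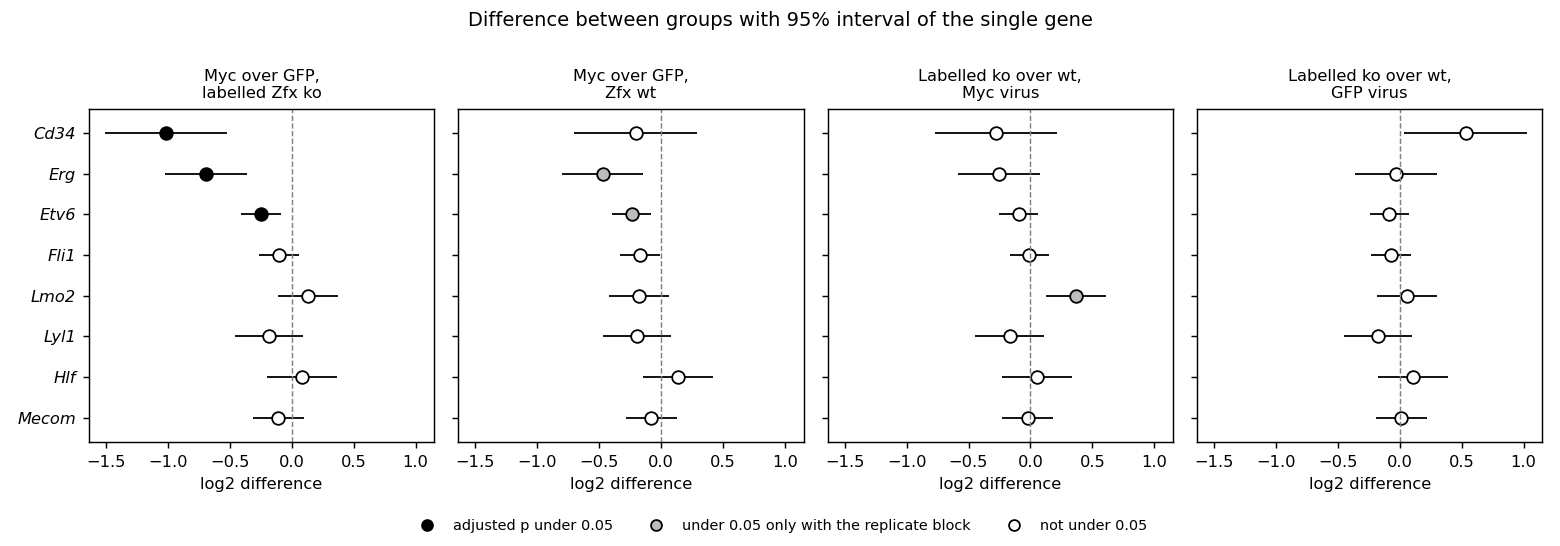
Log2 difference between groups for the 8 genes, with 95% intervals of the single gene, for Myc over GFP in labelled Zfx ko and Zfx wt cells and for labelled ko over wt with Myc and GFP virus. Black points passed an adjusted p of 0.05, grey points passed it only with the replicate block and open points did not pass; Cd34, Erg and Etv6 are black in the first panel, at -1.02, -0.69 and -0.25.

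Lmo2, the LIM-only bridge of the complex, was higher by its values in labelled Zfx ko cells with Myc virus, past the threshold only with the replicate block. It had 2712, 2442 and 3237 in labelled Zfx ko cells, against 2393, 2022 and 2069 in Zfx wt cells. The lowest labelled ko array was above the highest wt array. Lmo2 was 1.29-fold higher (95% interval 1.09 to 1.52), with a limma adjusted p of 0.0922, and of 0.0172 with the replicate block. The 3 pairs gave log2 differences of 0.18, 0.27 and 0.65.

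With GFP virus, Lmo2 had 2441, 2448 and 2729 in labelled Zfx ko cells, against 2560.2, 2219 and 2546 in wt cells. These groups overlapped, and the log2 difference was 0.06 ± 0.11 (SE, limma adjusted p = 0.936). With Myc over GFP, Lmo2 was higher by 0.13 ± 0.11 in labelled ko (adjusted p = 0.61) and lower by a log2 difference of -0.18 ± 0.11 in wt (adjusted p = 0.46), neither past the threshold. The difference between these responses, 0.31 ± 0.15, did not pass either (adjusted p = 1).

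Lyl1, the basic helix-loop-helix partner of Lmo2, was lower in labelled Zfx ko than in wt cells in 3 of 3 pairs with each virus, but in no comparison past the threshold. With Myc virus Lyl1 averaged 1947 ± 181 in labelled ko and 2189 ± 200 in wt cells (SD, n = 3 each), a log2 difference of -0.17 ± 0.12 (SE, limma adjusted p = 0.667). With GFP virus it averaged 2219 ± 286 in labelled ko and 2513 ± 333 in wt cells, and the pairs gave log2 differences of -0.19, -0.17 and -0.18. The residual SD of Lyl1 within groups was 0.16 on the log2 scale, and the adjusted p was 0.645, or 0.244 with the block. With Myc over GFP, Lyl1 differed by -0.18 in labelled ko (adjusted p = 0.475) and -0.19 in wt (adjusted p = 0.48).

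Hlf, a bZIP factor of stem cells, passed the threshold in no comparison. Its group means were at most 0.19 apart on the log2 scale, with a residual SD of 0.17 within groups. Hlf averaged 351 ± 34.1 in labelled Zfx ko and 339 ± 44.6 in wt cells with Myc virus, against 330.2 ± 18.2 in labelled ko and 309 ± 46.9 in wt cells with GFP virus (SD, n = 3 each). The Myc over GFP log2 difference was 0.08 in labelled ko (limma adjusted p = 0.844) and 0.14 in wt (adjusted p = 0.712). Mecom, near background, had 51.0, 40.2 and 50.0 in labelled ko and 48.6, 45.3 and 48.6 in wt cells with Myc virus, against 49.1, 51.6 and 50.9 in labelled ko and 55.0, 46.7 and 48.9 in wt cells with GFP virus. Its 4 comparisons between groups gave log2 differences between -0.11 and 0.01, and its other probe set gave -0.14 to -0.02, with 0 calls on either.

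Of the 8 genes, 3 fell with Myc in labelled Zfx ko cells (Cd34, Erg and Etv6) and 0 rose. Of all tested genes 13.2% were called there, 4.59% lower and 8.58% higher, and with the replicate block 10.4% were called lower and 14.5% higher. An unadjusted p under 0.05 (limma) was met there by 3 of the 8 and by 4790 of all 19938 genes. Calls were more frequent in a separate fit, with its own adjustment, of only the 10744 genes above the median intensity, which leave out Mecom. That fit called 2826, 1018 lower and 1808 higher, with 3 of the 7 members among them, while the main fit called 2626 of 19938. The median log2 difference of the 8 was -0.15, against 0.01 over all genes. The same 3 genes were those whose arrays did not overlap, a pattern met by 9.88% of all genes in the lower direction. In wt cells 0 of 8 passed (limma), against 9.28% of all genes, 3.11% lower and 6.17% higher. At an unadjusted p under 0.05 (limma) there were 3 of the 8 and 4072 of all 19938 genes. The separate fit of only the 10744 genes above the median intensity called 2012 in wt, 691 lower and 1321 higher, while the main fit called 1851 of 19938. With the replicate block 2 fell, Erg and Etv6, against 8.25% of all genes called lower and 12.2% called higher. Erg, Etv6 and Fli1 did not overlap between the groups in wt, all lower, against 9.44% of all genes. The 8 had a median of -0.19 in wt, against 0.00 over all genes.

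Between genotypes, 0 of 8 passed with Myc virus (limma), against 5.46% of all genes, 1.74% higher and 3.72% lower. At an unadjusted p under 0.05 (limma) there were 1 of the 8 and 3156 of all 19938 genes. With the block 1 rose, Lmo2, against 6.05% of all genes called higher and 8.03% called lower, and Lmo2 was the 1 gene without overlap between these groups, a pattern met in the higher direction by 8.4% of all genes. With GFP virus 0 of 8 passed, and 0 with the block, against 4.11% of all genes, 1.17% higher and 2.94% lower, and with the block 5.12% higher and 7.12% lower. An unadjusted p under 0.05 (limma) was met by 1 of the 8 in each fit, against 2913 of all 19938 genes, and 4777 with the block. Cd34 was the 1 gene without overlap there, against 7.44% of all genes in the higher direction. The interaction passed 0 of 8 genes (limma; 1 at an unadjusted p under 0.05) and 0 of 19938 genes, 0% (343 at an unadjusted p under 0.05). With the block it passed 0 of the 8 (2 at an unadjusted p under 0.05) and 0.00502% of all genes (939 at an unadjusted p under 0.05). The genotype and virus comparisons share arrays, so the values of a gene in them are not independent.

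**Figure D3:**
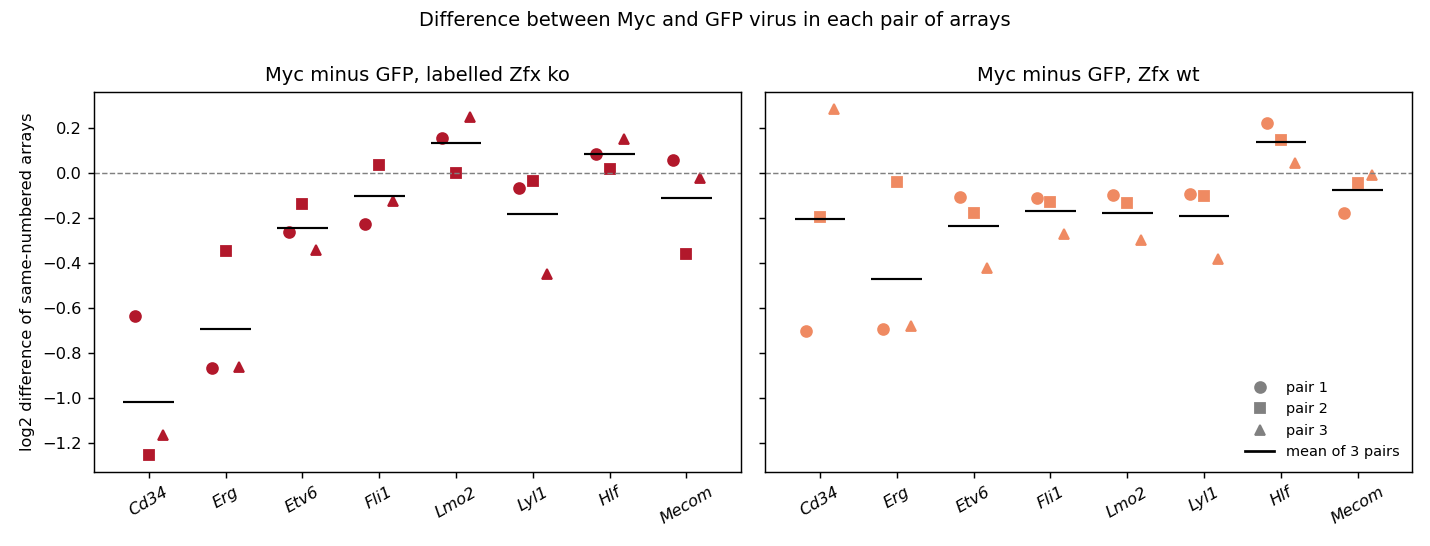
Log2 difference between Myc and GFP virus for each same-numbered pair of arrays, in labelled Zfx ko cells and in Zfx wt cells, with the mean of 3 pairs as a line. Cd34, Erg and Etv6 lie below 0 in 3 of 3 pairs in labelled ko cells, whereas the 3 pairs of Cd34 in wt cells run between -0.70 and 0.28.

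The list of other stem cell regulators held 29 measured genes of 30. With Myc in labelled Zfx ko cells 2 rose and 2 fell (median -0.06, against 0.01 over all genes). With the replicate block 5 rose and 10 fell. Of all genes 8.58% were called higher and 4.59% lower there, and 14.5% higher and 10.4% lower with the block. The shares and unadjusted counts over all genes given above for each comparison are also those to set beside the counts of the lists below. Ldb1, which binds Lmo2 in the same complex, rose 1.26-fold (limma adjusted p = 0.00457) and Bcl11a, a zinc finger repressor, rose 1.65-fold (adjusted p = 0.0426). Lmo4, a relative of Lmo2, was 1.35-fold lower (adjusted p = 0.00702), and Spi1, the ETS factor PU.1, was 1.33-fold lower (adjusted p = 0.0166).

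In Zfx wt cells 2 rose and 2 fell with Myc (median -0.04, against 0.00 over all genes), and 4 rose and 5 fell with the block. Of all genes 6.17% were called higher and 3.11% lower there, and 12.2% higher and 8.25% lower with the block. Ldb1 rose 1.21-fold (limma adjusted p = 0.0139) and Msi2, an RNA-binding protein of stem cells, rose 1.28-fold (adjusted p = 0.0136). Id2, an inhibitor of basic helix-loop-helix factors, was 2.32-fold lower (adjusted p = 0.0151) and Spi1 was 1.30-fold lower (adjusted p = 0.0301). The 3 factors that share enhancers with Erg, Fli1, Lmo2 and Lyl1 did not pass with Myc in either genotype. Gata2 had log2 differences of -0.32 in labelled ko and 0.53 in wt. Runx1 had -0.07 in labelled ko and 0.04 in wt, and Tal1 had 0.34 in labelled ko and 0.18 in wt.

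Between genotypes the list held calls with both viruses. With Myc virus 2 of 29 rose and 5 fell in labelled Zfx ko cells, and 5 rose and 8 fell with the block. Of all genes 1.74% were called higher and 3.72% lower there, and 6.05% higher and 8.03% lower with the block. Meis1, a homeobox cofactor, was 3.31-fold higher (limma adjusted p = 0.00659) and Gfi1b, a repressor of the erythroid and megakaryocyte line, 2.15-fold higher (adjusted p = 0.0174). Hoxa9 was 2.58-fold lower (adjusted p = 0.000971), Gata2 2.63-fold lower (adjusted p = 0.0252) and Hoxb4 1.41-fold lower (adjusted p = 0.00747), and Lmo4 was 1.30-fold lower (adjusted p = 0.0231). The 1 remaining call, Cbfb, the partner subunit of Runx1, was 1.23-fold lower (adjusted p = 0.0395) and is named after its values were seen. Hoxb4 was near the smell receptor level, at 79.9 to 130.8 over the 12 arrays. With GFP virus 1 rose, Gfi1b at 2.07-fold (adjusted p = 0.0264), and 2 fell, Hoxa9 at 2.68-fold lower (adjusted p = 0.00084) and Hoxb4 at 1.37-fold lower (adjusted p = 0.0132), and 7 rose and 5 fell with the block.

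**Figure D4:**
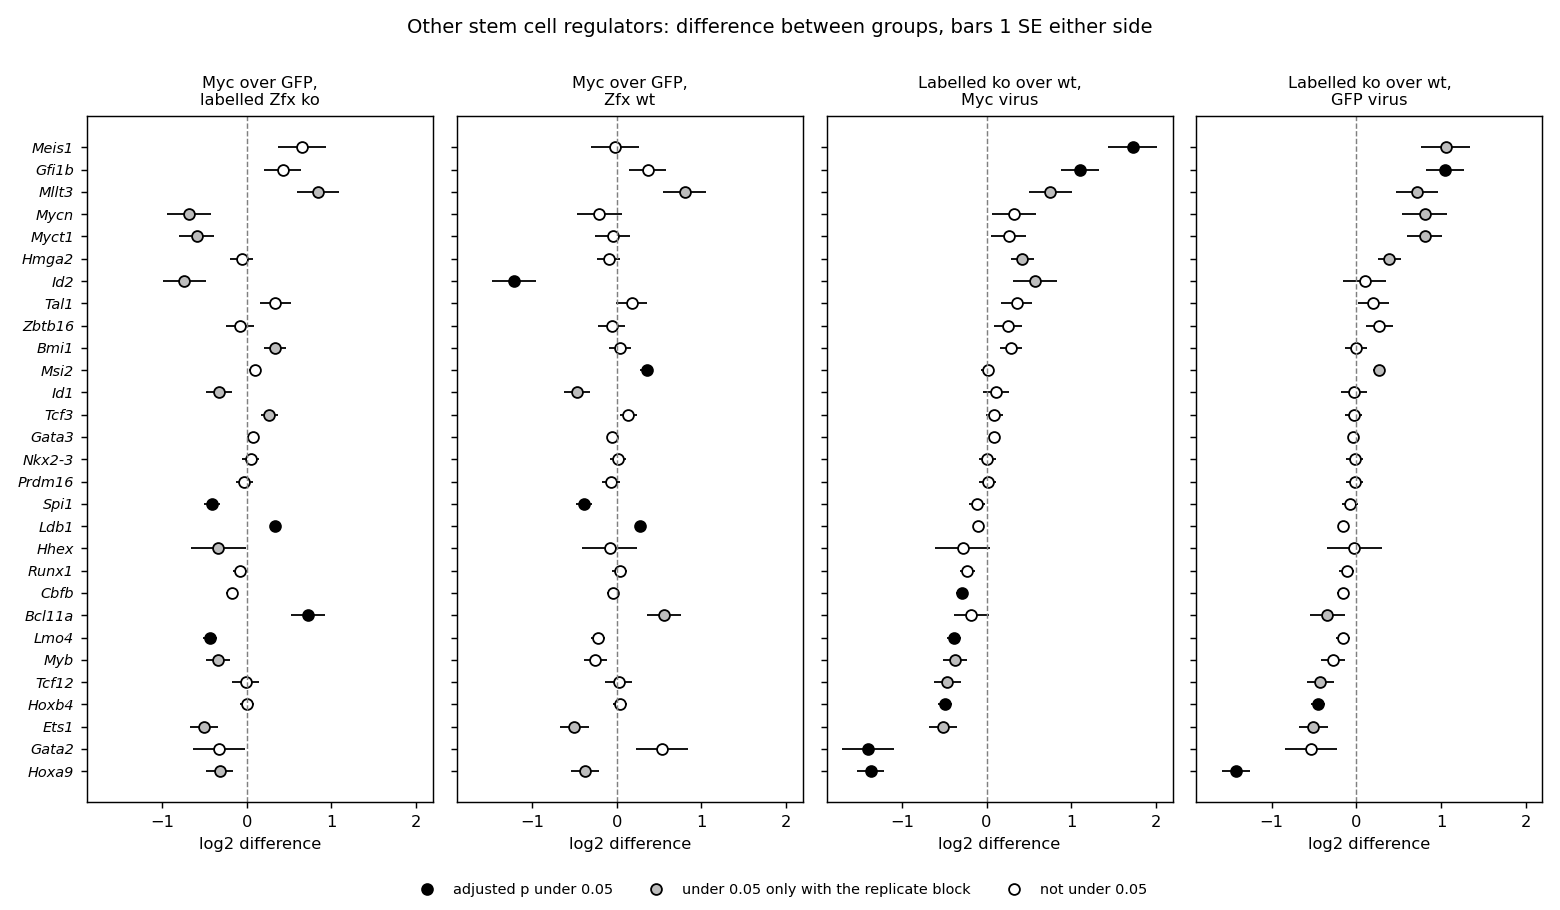
Log2 difference of the 29 other stem cell regulators for Myc over GFP in labelled Zfx ko and wt cells and for labelled ko over wt with Myc and GFP virus, with bars of 1 SE either side and points filled as in the plot of the 8 genes. Hoxa9 lies farthest below 0 with GFP virus and Meis1 farthest above 0 with Myc virus among the genotype differences, while Id2 lies lowest with Myc in wt cells.

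Of the 15 measured surface markers of stem and progenitor cells, 2 fell with Myc in labelled Zfx ko cells and 0 rose (median -0.20, against 0.01 over all genes; with the block 1 rose and 2 fell), beside Cd34. Cd93, a lectin-like receptor of early progenitors, was 2.62-fold lower (limma adjusted p = 0.000544) and Cxcr4, the receptor for the niche chemokine Cxcl12, 1.70-fold lower (adjusted p = 0.0152). In wt cells Cd93 was 2.12-fold lower (adjusted p = 0.00202), the 1 call among the 15, and the block added 2 more that fell. Kit did not pass, at log2 differences of -0.41 in labelled ko (adjusted p = 0.532) and -0.31 in wt (adjusted p = 0.721). Between genotypes with Myc virus, 1 rose and 1 fell, and 5 rose and 2 fell with the block. Cd93 was 1.69-fold lower (adjusted p = 0.00944). Tek, a receptor tyrosine kinase, passed as higher (adjusted p = 0.0136), with a geometric mean of 129.8 in labelled ko and 73.2 in wt cells, which is below the 95th percentile of the smell receptor genes, 84.7. With GFP virus 0 passed (limma; 4 at an unadjusted p under 0.05), and the block gave 4 higher and 1 lower.

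Of the 22 measured relatives in the ETS family, outside Erg, Fli1 and Etv6, 1 rose and 3 fell with Myc in labelled Zfx ko cells (1 and 6 with the block; median -0.04, against 0.01 over all genes), and 1 rose and 2 fell in wt cells (1 and 6 with the block; median -0.06, against 0.00). Erf, an ETS repressor, rose 1.59-fold in labelled ko (limma adjusted p = 0.00207) and 1.51-fold in wt (adjusted p = 0.00539). Elk3 was 1.48-fold lower in labelled ko (adjusted p = 0.0139), and Elf4 was 1.22-fold lower in labelled ko (adjusted p = 0.0268) and 1.24-fold lower in wt (adjusted p = 0.0265). Spi1 also belongs to this family. Between genotypes 0 of 22 passed with either virus (limma; 1 at an unadjusted p under 0.05 in each), and 1 fell with the block in each.

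Markers of the labelled cells and of other cell types moved with the same comparisons, and their part in the results above was not tested. With Myc in labelled Zfx ko cells, 2 of the 11 granulocyte and monocyte progenitor markers other than Cd34 fell and 0 rose, and 8 fell with the replicate block (median -0.41, against 0.01 over all genes). Their sum did not overlap, at 53338 to 63097 with Myc, against 63529 to 73505 with GFP. In wt cells 2 of 11 fell, and 5 with the block (median -0.31, against 0.00), at sums of 62652 to 69064 with Myc, against 72542 to 82231 with GFP. In labelled ko over wt cells, 1 of 11 fell with Myc virus and 0 passed with GFP virus (limma; 2 at an unadjusted p under 0.05). The block gave 1 higher and 4 lower with Myc virus, and 1 higher and 2 lower with GFP virus.

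With Myc in labelled Zfx ko cells, 8 of 10 neutrophil markers and 6 of 12 mast cell and basophil markers fell, and 5 of 8 erythroid markers rose. With the block 10 neutrophil markers and 8 mast cell and basophil markers fell, and 7 erythroid markers rose. The summed neutrophil markers were 43944 to 51253 with Myc, against 71036 to 85291 with GFP. In wt cells 7 of 10 neutrophil markers fell, and 10 with the block, at sums of 34545 to 47715 with Myc, against 68091 to 80177 with GFP. There 5 of 12 mast cell and basophil markers fell and 1 rose (6 and 1 with the block), and 1 of 8 erythroid markers rose (3 with the block).

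In labelled ko over wt cells with Myc virus, where Lmo2 passed only with the block, 7 of 8 erythroid markers rose with the block and 4 without it. Of the mast cell and basophil markers 6 of 12 fell with the block and 5 without it, and of the neutrophil markers 3 of 10 rose with the block and 1 without it. With GFP virus 1 erythroid marker rose with the block and 0 passed without it (limma; 2 at an unadjusted p under 0.05). There 5 mast cell and basophil markers fell with the block and 2 without it, and 2 neutrophil markers rose with the block and 1 without it.

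The 5 measured megakaryocyte markers, from a lineage that expresses Erg, Fli1 and Lmo2, summed to 5367 to 16220.9 in labelled Zfx ko and 1763 to 7135 in wt cells with Myc virus, against 20528 to 26772 in labelled ko and 7139 to 13862 in wt cells with GFP virus. Of the 5, 0 passed in any comparison (limma; 1 at an unadjusted p under 0.05 with Myc in each genotype and 4 between genotypes with each virus), and with the replicate block 1 fell with Myc in each genotype and 4 rose in labelled ko over wt with each virus. Endothelial cells also express Cd34, Erg and Fli1. The summed level of their 11 markers was 2209 to 3598 in labelled ko and 1900.3 to 2540 in wt cells with Myc virus, against 3483 to 4310 in labelled ko and 2707 to 2966 in wt cells with GFP virus. Vwf, at 173 to 1440 over the arrays, is in both this list and the megakaryocyte list, so the 2 sums are not separate. Of the 11, 8 were above the 95th percentile of the smell receptor genes, among them Pecam1 at 390 to 1357, Egfl7 at 339 to 598 and Tie1 at 274 to 481, while Robo4, Cdh5 at 55.8 to 63.4 and Emcn at 35.7 to 42.5 were not. With Myc 2 fell and 0 rose in each genotype, Pecam1 and Tie1, and with the block 2 fell in each genotype, 2 rose in labelled ko and 1 rose in wt cells. In labelled ko over wt cells 1 rose with Myc virus, Tek (3 with the block), and 0 passed with GFP virus (limma; 3 at an unadjusted p under 0.05), where 2 rose with the block. Of 8 stromal markers 4, and of 8 lymphoid markers 1, were above the 95th percentile of the smell receptor genes, and 0 of either list passed in any comparison between groups (limma; at most 1 of each at an unadjusted p under 0.05).

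Genes whose log2 values ran most like those of a member over the 12 arrays are named as a description, with no test, since the arrays share groups, replicate sets and normalization. They come from the 10228 genes above the median intensity that remain without predicted or clone-named genes, microRNA, small nucleolar RNA and smell receptor genes. Cd34 ran most like Kidins220, Mfsd6l and Tap2 (Pearson r 0.91, 0.89 and 0.88). Erg ran most like Syne1, Sh3kbp1 and Itgb2l (0.97, 0.96 and 0.96), and Etv6 most like Prr14, Ptbp3 and the mast cell tryptase gene Tpsab1 (0.96 each). Lyl1 ran most like Agps, Myb and Kcnk12 (0.97, 0.96 and 0.95), and Myb is a progenitor factor of the list above. Fli1 ran most like Zfp654, Zmpste24 and the megakaryocyte and erythroid factor Nfe2 (0.94, 0.93 and 0.92). Lmo2 ran most like Fbxo48, Mon1b and Lin37 (0.90, 0.87 and 0.87), Hlf most like Nsl1, Dmac2l and the clock gene Per3 (0.92, 0.92 and 0.91), and near-background Mecom most like Unc45bos, Tnks1bp1 and Col26a1 (0.91, 0.86 and 0.86).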

How the data were processed

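Each deposited value is the intensity of a probe set on an array, on a linear scale, made by the authors with RMA, per the submitters' processing notes; the software version is not given in the sources used here. RMA corrects background, quantile-normalizes and summarises probes, so each value is relative to the other probe sets of its array, and the table gives no detection call. From these intensities log2 was taken, with no pseudocount and no filter on dim probe sets. Array groups were read from the sample titles.

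Of 35556 probe sets, 21789 have 1 gene symbol, 1621 several and 12146 have none in the array annotation used. The probe set with the highest mean was kept per gene, which left 19938 genes. The groups were fitted with limma 3.58.1 in R 4.3.3 (lmFit, eBayes; 4 group means over all 12 arrays, 8 residual degrees of freedom), at a Benjamini-Hochberg adjusted p under 0.05 over all genes. Intervals are 95% for the single gene. With 3 arrays per group, their number limits the precision. Log2 values of replicates correlated at 0.988 to 0.996 within groups, and 0 pairs were identical. The fit was tested on simulated data whose arrays varied independently, without the correlation of same-numbered arrays given below.

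Deviations from group means correlated at 0.40 to 0.85 (median 0.64) in the 18 pairs of same-numbered arrays from different groups, while arrays of unlike numbers had a median of -0.42. Deviations cancel out within a group, so positive values for like numbers force negative ones for unlike numbers. Because same-numbered arrays correlated, they were also compared as pairs. The main fit holds no term for the replicate number, so p-values and intervals not marked as blocked do not use this pairing. A blocked fit (replicate block, 6 residual degrees of freedom) was the alternative. Its values stand beside results whose call it changes or whose count it shifts by over 1.5 times. The labels do not say what equal numbers share.

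The 8 genes and the lists were chosen with earlier results of these data known. All 8 are named, up to 6 genes past the threshold by lowest p and at most 3 others per list and comparison, and 3 similar genes per member. Cbfb and markers of cell types were named after their values were seen. Alternatives were the block, a second quantile normalization, median centring, a trended and robust prior, genes above the median intensity, the compared groups alone, all probe sets and leaving out each array. Promoter sequences are from RefSeq, build GRCm38.p6.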

Additional observations from a re-analysis of the deposited data

How the results depend on the processing

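With the replicate block, the genes past the threshold numbered 4959 for Myc in labelled Zfx ko, 4082 for Myc in wt, 2808 between genotypes with Myc virus, 2440 between genotypes with GFP virus and 1 for the interaction. Of the 8 genes, the block called 2 with Myc in wt (Erg and Etv6) and 1 between genotypes with Myc virus (Lmo2), and changed no other call. A second quantile normalization called 1 with Myc in wt, Etv6 (limma adjusted p = 0.0279). Fits of the compared groups alone, with fewer arrays behind the spread, called 1418 genes for Myc in labelled ko and 562 between genotypes with Myc virus. With 1 array left out, the genes past the threshold ranged over 1395 to 2555 for Myc in labelled ko, 838 to 2044 for Myc in wt, 578 to 1098 between genotypes with Myc virus, 410 to 802 with GFP virus and 0 to 4 for the interaction. Of the 8 genes, 0 to 3 were then called for Myc in labelled ko and 0 to 1 for Myc in wt, and 0 in the other comparisons. The 0 came without replicate 3 of the Myc arrays labelled ko, and without replicate 1 of the GFP arrays labelled ko 1 was called. Etv6 in labelled ko also missed the threshold with median centring (0.134), with the compared groups alone (0.0813) and over all probe sets (0.0706). The trended and robust prior kept 40 of 40 results of the 8 genes on their side of the threshold, the genes above the median intensity, which leave out Mecom, 35 of 35, and no setting turned the sign of a called value. The causes of these changes were not tested. Signal near background limits Mecom, and 3 arrays per group limit every interval.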

Other observations

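The arrays of replicate 2 were low for several of the 8 genes. Over all genes, deviations of same-numbered arrays correlated at a median of 0.64. How many of all genes show such a pattern was not counted, so it cannot be called particular to these genes. Hlf was lowest on replicate 2 in 4 of 4 groups, at a mean deviation from the group mean of -0.18 on the log2 scale, and Cd34, Lmo2, Lyl1 and Mecom were lowest on it in 3 of 4 groups, at mean deviations of -0.21, -0.12, -0.15 and -0.09. Fli1 and Etv6 were instead lowest on replicate 1 in 3 of 4 groups, at mean deviations of -0.06 and -0.05. The residual SD within groups was 0.31 for Cd34, 0.20 for Erg, 0.17 for Hlf, 0.16 for Lyl1 and 0.14 for Lmo2, against 0.09 for Fli1 and 0.08 for Etv6.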
